A study of Mus musculus with 4 samples.

Results

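Binding sites of POU2F3 were examined at 6 genes that mark tuft cells: Pou2f3, Dclk1, Gfi1b, Trpm5, Avil and Sh2d6. The sites came from the authors' deposited list for the mouse small intestine, in mm9 coordinates. A site was counted for a gene when its midpoint lay in a fixed window holding that gene and about 100 kb on either side. The 6 windows together covered 1655 kb. They held 12 of the 2828 listed sites: 5 at Pou2f3, 5 at Dclk1, 1 at Trpm5, 1 at Avil, and 0 at Gfi1b and at Sh2d6. Thus 4 of the 6 genes had a listed site and 2 had none. Of equal-width windows along the chromosomes of these genes, 13.5% to 27.9% held at least 1 site, depending on width and chromosome. Those windows were not limited to places around genes.

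Tuft cells are rare chemosensory cells of the gut lining that sense luminal signals and pass them on to immune and nerve cells. POU2F3 is the POU-domain transcription factor without which they do not form. Factors of its family recognise an eight-letter DNA element, the octamer. Dclk1 encodes a doublecortin-like kinase that is widely used as a tuft cell marker. Trpm5 encodes a calcium-activated cation channel of the taste signalling cascade, and Avil encodes advillin, an actin-binding protein of the villin family. Gfi1b encodes a zinc-finger transcriptional repressor, and Sh2d6 encodes a protein with an SH2 domain.

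The cells were intestinal tuft cells of male C57BL/6J mice, taken from the proximal 5 cm of the small intestine and sorted on CD45, EpCAM and Siglec F staining. Chromatin was profiled by ChIPmentation, in which Tn5 transposase adds the sequencing adaptors on the beads. POU2F3 was precipitated in 2 samples, with an IgG control and an input sample of 1 each, all from this strain and cell type. The replicates came from 2 cell pools and 3 mice, and how the mice were shared between the pools is not stated. The design implies a comparison of POU2F3 with IgG or input, but values for the controls at these windows were not analysed here. The list gives 1 score per site for the series as a whole, so no value below has a replicate error or a test. Its read depth is unknown. No expression values were analysed here, so the cell type label was not checked against marker genes.

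Trpm5 and Avil each had a single listed site, and in both cases it lay near the estimated end of the gene where transcription starts. The share of all listed sites near a gene start was not counted, so how usual such a place is in the list is not known. The gene itself was taken as its window less 100 kb at each end. That estimate differed from the annotated gene length by at most 3.6 kb over the 6 genes. A like length does not fix where either end lies, so the error of the estimated ends is not known. The Trpm5 site lay at chr7:150278768-150279517 (mm9), 0.9 kb inside the estimated upper end. Trpm5 is read from the minus strand, which makes its upper end the start of the gene. The Avil site lay at chr10:126437437-126438027 (mm9), 0.7 kb inside the estimated lower end, and Avil is read from the plus strand. Both distances are to estimated ends, and overlap with the transcription start itself was not measured.

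By the estimated ends, both sites lay inside their genes and so after the start. The reference promoters of these 2 genes are shown because their listed sites lay near an estimated gene start. They are RefSeq sequences of build GRCm38.p6, whose coordinates are not those of the sites. Each gives the 250 bases before a transcription start, 5′ to 3′ on the strand of the gene. Capitals mark ATGCAAA, the first 7 letters of the octamer, or TTTGCAT, which is the same on the other strand. The Trpm5 promoter lies at chr7:143094643-143094892 on the minus strand and the Avil promoter at chr10:127000459-127000708 on the plus strand.
Trpm5: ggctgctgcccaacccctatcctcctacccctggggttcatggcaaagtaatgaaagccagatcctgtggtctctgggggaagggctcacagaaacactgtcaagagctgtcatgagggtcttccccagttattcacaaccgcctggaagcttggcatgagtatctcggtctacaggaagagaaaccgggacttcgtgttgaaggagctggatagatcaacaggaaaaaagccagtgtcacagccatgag
Avil: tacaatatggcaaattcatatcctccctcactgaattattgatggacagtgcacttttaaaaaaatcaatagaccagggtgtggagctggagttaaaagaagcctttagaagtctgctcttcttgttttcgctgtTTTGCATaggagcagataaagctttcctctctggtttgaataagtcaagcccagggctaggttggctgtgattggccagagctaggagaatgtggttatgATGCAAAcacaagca

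The Avil promoter held the seven-letter core at 2 places, TTTGCAT from 115 bases and ATGCAAA from 15 bases before the start. The Trpm5 promoter held none. Neither held the full octamer, ATGCAAAT or ATTTGCAT, which contains the core. The search covered the table's whole promoters, 300 bases of which 50 lie after the start, on both strands. Promoters were found for 5 of the 6 genes, with 2 for Dclk1, and the missing entry was Pou2f3. Of these 6 promoters 0 held the octamer and 1, that of Avil, held the core. Among all 32851 promoters of the table, 1.74% held the octamer and 4.63% held the core, and 0.292% held the core at 2 or more places, as Avil did. A match is a description of the letters and not a measured site. The printed bases lie before a start, whereas the listed sites lay after the estimated starts. The Avil matches are therefore not shown to lie in its listed site.

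Other tuft cell genes were searched in the same way, from a list of 21 that covers eicosanoid enzymes, taste signalling, cytokines, receptors and transcription factors. Of these, 17 matched the table, with 19 promoters. The octamer was present in 2 of the 19 (10.5%), those of Hpgds, the prostaglandin D synthase of haematopoietic type, and Sucnr1, the succinate receptor. The core was present in 3 (15.8%), the same pair and that of the transcription factor Runx1. Over all promoters these shares were 1.74% for the octamer and 4.63% for the core. The list was chosen with earlier results of these data known, and these few promoters were not tested against that background. Listed sites at these genes were not counted, since no mm9 annotation was used here.

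The Trpm5 site was 750 bp wide and had a score of 10.23, which ranked 637 of 2828. On chromosome 7 it was the 28th highest of 128 sites. The Avil site was 591 bp wide and had a score of 9.06, which ranked 1112, and it was the 59th highest of 156 on chromosome 10. Both scores lay above the list's median of 8.53, and both sites were broader than the list's median width of 291 bp. They stood alone, with no other listed site within 274.58 kb of the Trpm5 site or 151.05 kb of the Avil site.

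A single site in a window of this size was not rare. Equal-width windows were laid end to end along each gene's own chromosome, whether or not they held genes, to give the background. At least 1 site was present in 13.5% of 650 windows of 225 kb on chromosome 7 and in 16.9% of 561 windows of 223 kb on chromosome 10. A best score as high as that of the Trpm5 window was found in 3.54% of those on chromosome 7. One as high as that of the Avil window was found in 8.02% of those on chromosome 10. Windows without a site count in these shares. Of the windows that held a site, the best score was as high in 23 of 88 on chromosome 7 and in 45 of 95 on chromosome 10. The windows hold other genes as well. In GRCm38.p6 the 100 kb on either side of Avil held 11 other protein-coding genes, the nearest being Ctdsp2 and Atp23 on its lower side and Tsfm and Eef1akmt3 on its upper side. For Trpm5 there were 4, among them Tssc4 and Cd81 on the lower side and Kcnq1 on the upper side. Which of these genes a site acts on was not measured.

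At its own gene, POU2F3 had 5 listed sites, all within 22.1 kb around the upper end of Pou2f3. The first lay at chr9:42996501-42997769 (mm9), with a width of 1269 bp and a score of 15.43. It was the highest-scoring of the 146 sites on chromosome 9 and the 7th widest of the whole list. The fifth, at chr9:43017834-43018648, was 815 bp wide with a score of 15.23, the 3rd highest of the chromosome.

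These 2 sites ranked 35 and 41 of 2828, within the top 1.45% of the list, and their midpoints lay 21.1 kb apart. Between them lay 3 weaker sites. The second, at chr9:42998064-42998145, was only 82 bp wide, followed the first after a gap of 294 bp and had a score of 5.89, ranking 2741. The third, at chr9:43008189-43008599, was 411 bp wide with a score of 10.72, ranking 494. The fourth, at chr9:43014109-43014441, was 333 bp wide with a score of 7.69, ranking 1962. The 5 sites therefore ranged from near the top of the list to near its bottom.

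In relation to the gene, the first 3 sites lay inside the estimated gene, 12.9, 11.9 and 1.6 kb from its upper end. The fourth and the fifth lay 4.3 and 8.2 kb beyond that end. The error of that estimated end is not known, so the sides of the sites nearest to it are not settled. No strand was taken for Pou2f3, so whether its upper end is where transcription starts is not stated. Near Pou2f3, the annotation had 3 other protein-coding genes within 100 kb, Tlcd5 and Arhgef12 on the lower side and Oaf on the upper side.

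**Figure D1:**
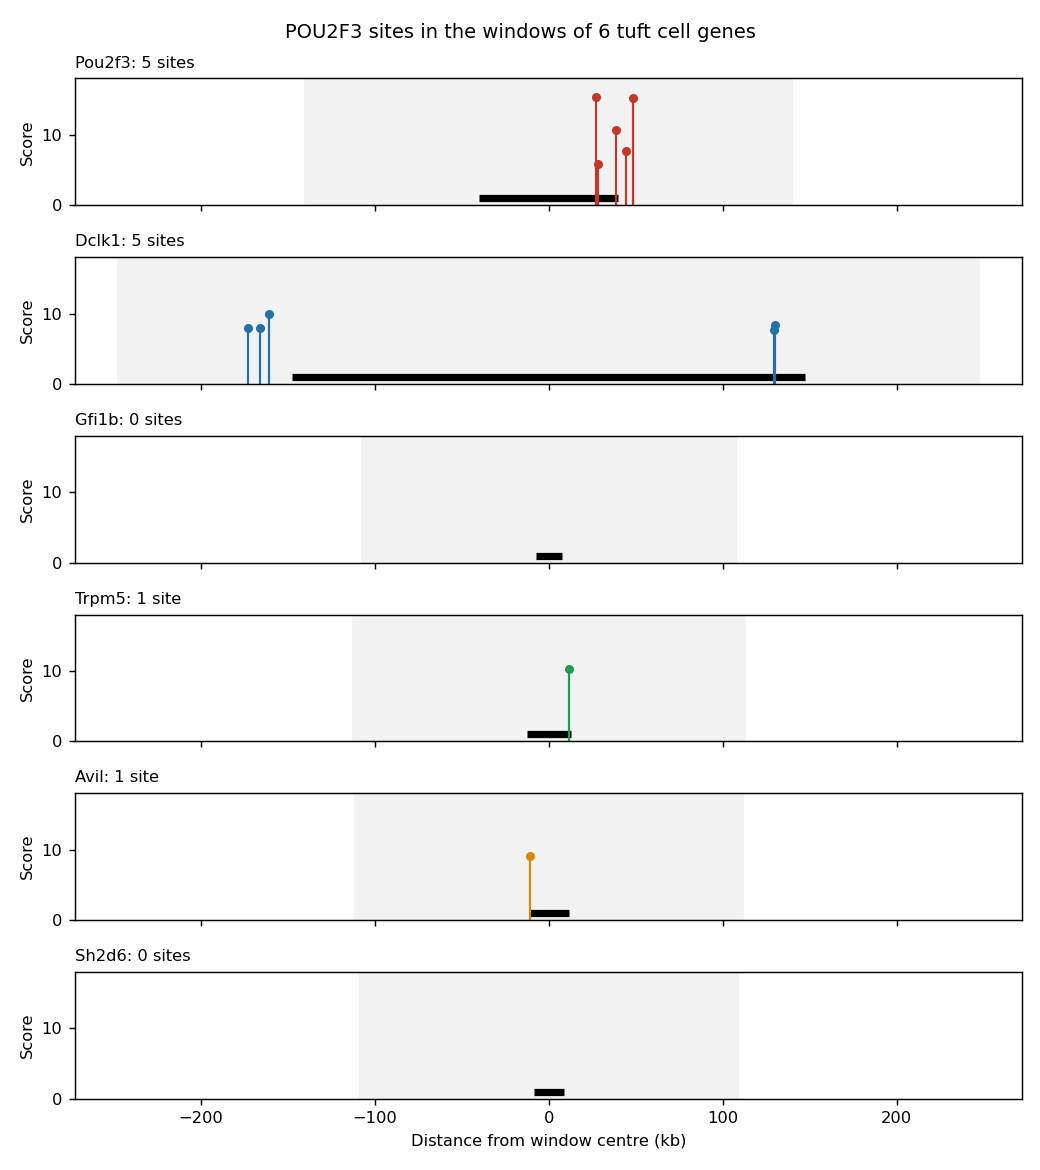
Score of each POU2F3 site (vertical lines with points, unit not given) against distance from the window centre in kb, for the windows of the 6 genes. Grey shading is the window and the black bar the estimated gene, at a height without meaning. The 5 Pou2f3 sites gather at 1 end of the gene, the 5 Dclk1 sites fall into a group of 3 outside and 2 inside the gene, and the Gfi1b and Sh2d6 windows are empty.

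Windows with this many sites were uncommon. On chromosome 9, 0.468% of 427 windows of 280 kb held at least 5 sites, which is 2 windows, and 19.4% held at least 1. With the 5 Pou2f3 sites themselves taken out, 1 of the windows held as many. A best score as high as 15.43 was found in 0.234% of the windows, and in 0 with the Pou2f3 sites taken out. Both values follow from that score being the highest of the chromosome. Over the whole list, 10 places had at least 5 sites in a span of 22.1 kb or less, that of Pou2f3 among them, and 7 of the 10 were on autosomes. Their best scores had a median of 13.08, and 15.43 at Pou2f3 was the highest. This search of places was chosen after the Pou2f3 sites had been seen. Of the 41 sites of the list with scores of at least 15.23, 4 had another such site within 21.1 kb, 2 of them at Pou2f3. Both limits of this count were taken from those 2 Pou2f3 sites, which therefore meet them by construction.

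Dclk1 had as many sites as Pou2f3, but they were weaker and lay in 2 groups. Of the 5, 3 lay before the gene and 2 inside it near its far end, 289894 bp apart at the nearest. Dclk1 is read from the plus strand, so the first group lay upstream, 25.3, 18.3 and 13.2 kb from the estimated start. In order, these were chr3:55024664-55024824 (161 bp, score 7.99), chr3:55031528-55031878 (351 bp, score 7.89) and chr3:55036497-55037183 (687 bp, score 9.89). The site nearest to the gene was thus the broadest and the highest-scoring of the Dclk1 window, with a rank of 761.

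The second group was a close pair, at chr3:55327078-55327352 (275 bp, score 7.68) and chr3:55327482-55327767 (286 bp, score 8.36), with a gap of 129 bp. They lay inside the estimated gene, 17.8 and 17.4 kb before its end. The reference gives Dclk1 a further promoter inside the gene, and the distance of the pair to that start was not measured. Of the 5 Dclk1 sites, only the third scored above the list's median of 8.53. The scores of the other 4 ranked between 1511 and 1971. Within 100 kb of Dclk1 the annotation had 3 other protein-coding genes, of which Sohlh2 and Ccdc169 are on the upstream side, where the group of 3 lies, and Nbea is on the downstream side.

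In the Dclk1 window it was the number of sites, more than their scores, that was uncommon for its chromosome. On chromosome 3, 1.33% of 301 windows of 495 kb held at least 5 sites and 27.9% held at least 1. A best score as high as 9.89 was found in 11.3% of them, or in 34 of the 84 windows that held a site. With sites within 1 kb merged, Dclk1 and Pou2f3 each had 4 sites. The shares of windows with as many sites were not recounted on merged sites for either gene. The upstream group, 3 sites in 12.5 kb, had many counterparts: 77 places of the list, that of Dclk1 among them, held at least 3 sites in such a span. At 48 of the 77, again with that of Dclk1, the best score was at least 9.89. The median of the best scores of the 77 was 10.39. These counts were also chosen after the sites had been seen.

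**Figure D2:**
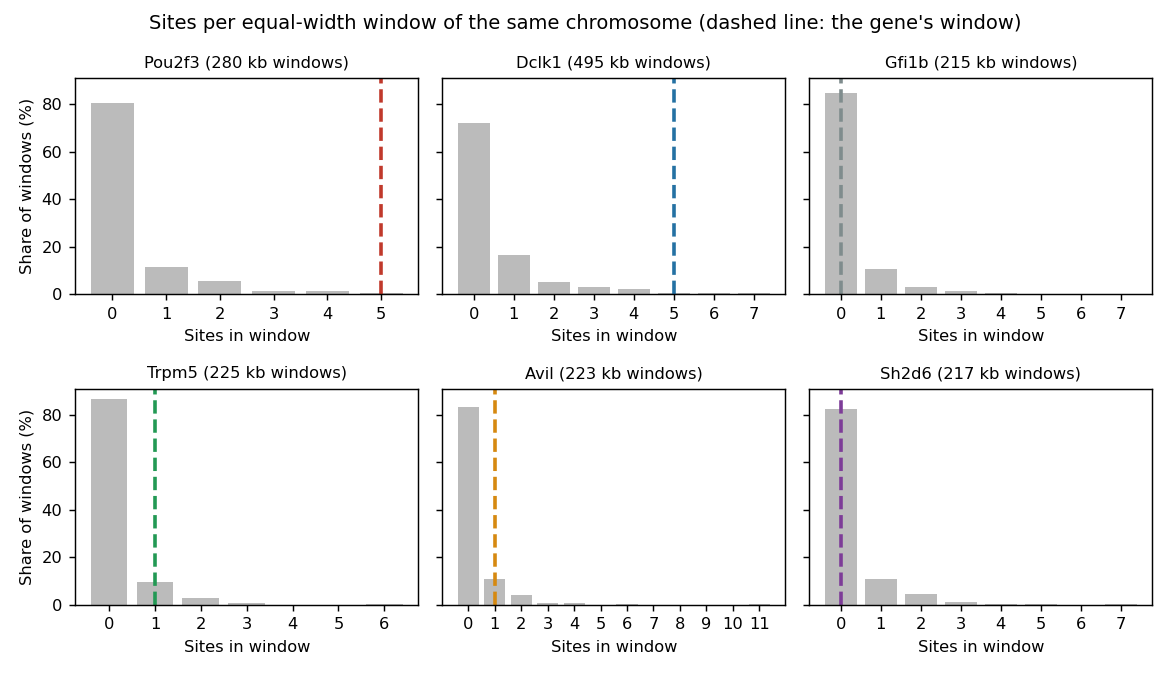
Share of equal-width windows in percent by the number of sites they hold, 1 panel per gene, over windows of the same width on the gene's chromosome (grey bars), with the gene's own count as a dashed line. The counts of 5 at Pou2f3 and Dclk1 stand at the sparse right side of the bars, and the counts of 0 at Gfi1b and Sh2d6 stand at the tallest bar.

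Gfi1b and Sh2d6 had no listed site in their windows, nor within 100 kb beyond them. Around Gfi1b (window chr2:28365000-28580000) the nearest listed sites lay 0.97 Mb below and 2.01 Mb above the window. The one below, at chr2:27395181-27396047, had a score of 15.56, which ranked 33, just ahead of the best Pou2f3 site. Around Sh2d6 (window chr6:72363000-72580000) the nearest sites lay 0.68 Mb below, with a score of 9.12, and 0.55 Mb above, with a score of 8.68.

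An empty window was the usual case. At least 1 site was present in 15.3% of 830 windows of 215 kb on chromosome 2 and in 17.7% of 666 windows of 217 kb on chromosome 6, so most windows of these sizes held none. The threshold and depth behind the list are not known here, so an empty window does not show that POU2F3 is absent. The promoters of Gfi1b and Sh2d6 in the table held neither the octamer nor its core.

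Outside the windows with sites, the next listed sites were mostly far away. For Pou2f3 they lay 224.6 kb below (score 10.6) and 890.8 kb above (score 6.88) the window, and for Dclk1 2.41 Mb below (score 11.52) and 1.79 Mb above (score 7.25). For Trpm5 they lay 2.85 Mb below (score 6.57) and 174.2 kb above (score 9.49). The Avil window had the closest, a site of 221 bp with a score of 6.88 just 29.2 kb above it, and another 135.9 kb below it (score 10.07). All other window edges had no listed site within 100 kb outside them.

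The scores of the 12 sites were spread much like those of the list. Their median score was 8.71 (range 5.89 to 15.43), against 8.53 for the whole list, and exactly 6 of the 12 scored at or above the list's median. Of the 12, 4 (33.3%) were among the highest-scoring 25% of the list, 3 of them at Pou2f3, and 1 was among the lowest-scoring 25%. Their median width was 381 bp (range 82 to 1269 bp), against 291 bp. Sites of 600 bp or more made up 4 of the 12 (33.3%) against 17.3% of the list, and those from 400 bp to below 600 bp made up 2 (16.7%) against 20.8%.

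Broad sites scored higher over the list as a whole. The list's median scores were 7.49 below 200 bp, 8.27 from 200 bp to below 400 bp, 9.01 from 400 bp to below 600 bp, and 11.09 from 600 bp upwards. Against the median of its own width class, 6 of the 12 sites scored higher. At Pou2f3 the 2 broad sites lay well above their class, at 15.43 and 15.23, whereas the broad sites at Trpm5 (10.23) and Dclk1 (9.89) lay below it.

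**Figure D3:**
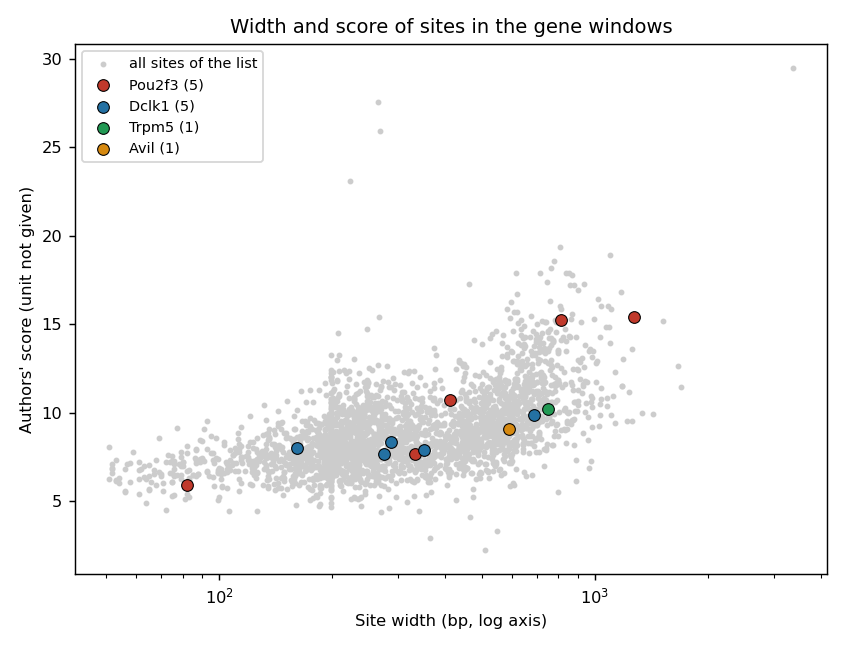
Each point is a site, placed by its width (x axis, bp, log scale) and by the score of the authors' list (y axis, no unit stated), with all 2828 sites in grey and the 12 sites of the gene windows in colour. The 2 broad Pou2f3 sites, at 15.43 and 15.23, stand above the broad Trpm5 and Dclk1 sites. All 12 lie within the range of the list, whose scores reach 29.47 and whose widths reach 3373 bp.

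The close packing of the sites was that of Pou2f3 and Dclk1. The windows held 7.25 sites per Mb, against 1.16 per Mb on autosomes from the first to the last site of each. The windows were laid around genes and this background was not, and the density around genes in general was not counted. The density was 5.09 per Mb without the Pou2f3 window and 6.03 per Mb without the Dclk1 window. Without both, the other 4 windows held 2 sites in 880 kb, or 2.27 per Mb. A neighbour within 10 kb was present for 10 of the 12 (83.3%), against 33.7% of the list. All 10 were at Pou2f3 and Dclk1. A neighbour within 1 kb was present for 4 (33.3%) against 21.7%. Of the 12 sites, 7 lay inside the estimated genes and 5 outside. The share of all listed sites inside genes was not counted, so this split has no background. Sites that share a window share a locus and are not independent, so the shares of the 12 sites describe 4 loci rather than 12 separate observations.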

How the data were processed

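The deposited data are 1 list of POU2F3 sites without a header, with chromosome, start, end, name and a score per site. The score is the authors' own value, its meaning is not stated, and it served only to rank and describe sites. FastQC, MACS2, Bowtie 0.12.8, SAMtools 1.3.1 and mm9 are named in the submitters' processing notes. Pooling, control and threshold are not given in the sources used here, and depth is unknown. They can affect which sites are listed.

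Sites were assigned by midpoint to windows fixed for each gene, with every site in them named. The genes, windows and lists were chosen with earlier results of these data known. Equal-width windows started at the first base of the chromosome, and those between its first and last listed site were kept, including those holding the gene's sites. Positions are 1-based. Gene lengths, neighbours and promoters came from RefSeq (GRCm38.p6). The strand was that given for the promoters. No test was made, because there are no values per sample. Window counting was checked on artificial data with known counts. Alternatives changed the flank, the overlap, the score threshold, the merging of sites, the background windows and the motif. Python 3.11.15, NumPy 2.4.6, pandas 2.3.3 and matplotlib 3.10.9 were used.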

Additional observations from a re-analysis of the deposited data

How the results depend on the processing

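Over 20 results there were 76 alternative values. Of the 66 that are counts, shares or densities, 55 were equal to the reported value or within 1.5 times of it and 11 were not. Of the 10 that are medians of width or score, 6 changed at all. Leaving out the Pou2f3 window, the Dclk1 window or both were settings chosen after seeing the data. Without both, the density fell from 7.25 to 2.27 sites per Mb. The number of genes with a site was 4 in all 6 settings tried, and Gfi1b and Sh2d6 had 0 sites in all of them. When sites below the list's median score were dropped, 6 remained, 3 at Pou2f3, 1 at Dclk1 and 1 each at Trpm5 and Avil. Their medians were 718.5 bp and 10.47, a rise that the threshold itself brings. Taking the gene alone, without flanks, left 7 sites, 3 at Pou2f3 and 2 at Dclk1. Widening the flanks by 100 kb gave Avil 2 sites, and the medians became 351 bp and 8.36. Merging sites within 1 kb left 10 sites, 4 each at Pou2f3 and Dclk1. Their medians were 639 bp and 9.48, since close sites were joined and the best score was kept. The core in place of the octamer raised the share of promoters from 0% to 16.7% for the 6 genes, from 10.5% to 15.8% for the other tuft genes and from 1.74% to 4.63% for all, since the core is part of the octamer. The share of windows with as many sites ranged from 0.427% to 0.701% for Pou2f3 and from 1.28% to 1.66% for Dclk1. No paired analysis was possible because the list has no values per sample, and for the same reason no replicate could be left out.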
